A study of Homo sapiens with 12 samples.

Results

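The response of RCC4 cells to erastin after YAP silencing was measured by comparing the 3 arrays of siYAP cells given erastin with the 3 arrays of siYAP cells given DMSO. These are 6 of the 12 arrays in the series, and 11963 genes were compared, each through the single-symbol probe set with the highest mean over the 12 arrays. RCC4 is a human cell line, long established from a clear cell carcinoma of the kidney. Every culture received an siRNA for 2 days, either against YAP (siYAP) or non-targeting (siNT), and then DMSO or 1 µM erastin for 7 h. The 4 resulting groups held 3 arrays each, and the labels give no other difference in treatment. The titles also carry running numbers that rise from siNT DMSO through siNT erastin and siYAP DMSO to siYAP erastin. What they stand for is not stated, and that order cannot be separated from group. The replicates are called biological triplicates, but how separately they were cultured is not stated, so p-values measure only the spread between these samples. The design allows the erastin response to be asked for in cells with little YAP.

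Erastin blocks system xc-, the exchanger that brings cystine into the cell in return for glutamate. SLC7A11 is its transport subunit and SLC3A2 its partner chain, and the imported cystine is the main source of cysteine for glutathione in many cultured cells. Amino acid shortage and other stresses activate the integrated stress response, in which phosphorylation of eIF2α favours translation of the transcription factor ATF4, which binds C/EBP-ATF response elements and turns on genes for amino acid import, synthesis and tRNA charging. YAP is the transcriptional co-activator held in check by the Hippo pathway, and its silencing has been studied in connection with ferroptosis, the iron-dependent death by lipid peroxidation that erastin can bring about.

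In siYAP cells a small group of genes changed with erastin, and most of them rose. At an adjusted p under 0.05 (limma, Benjamini-Hochberg over all genes), 40 of 11963 genes were called, or 0.334%, of which 39 rose (0.326%) and 1 fell (0.00836%). By size, 7 of the 40 changed at least 2-fold and 17 at least 1.5-fold, and all of these rose. INHBE, CHAC1, SLC7A11, DDIT4, SLC1A4, ASNS and CTH were the 7, with changes from 2.04-fold to 4.35-fold, and all but SLC1A4 and CTH stand on the list of ATF4 regulators and targets. The median log2 fold change over all genes was 0.0019 and the median standard error 0.078. At an unadjusted p under 0.05 there were 1277 genes. Other variance settings called more genes and more of them lower: 74 with a trended and robust variance (51 higher, 23 lower) and 73 with array weights (60 higher, 13 lower), each including all 40. The number of calls rested on all 6 arrays: leaving out 1 array at a time gave 20 to 27 calls. It fell to 24 without siYAP DMSO array 1, 20 without siYAP DMSO array 2, 22 without siYAP erastin array 2 and 20 without siYAP erastin array 3. Of the 40 genes, 19 were called without any 1 of the 6 arrays.

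**Figure D1:**
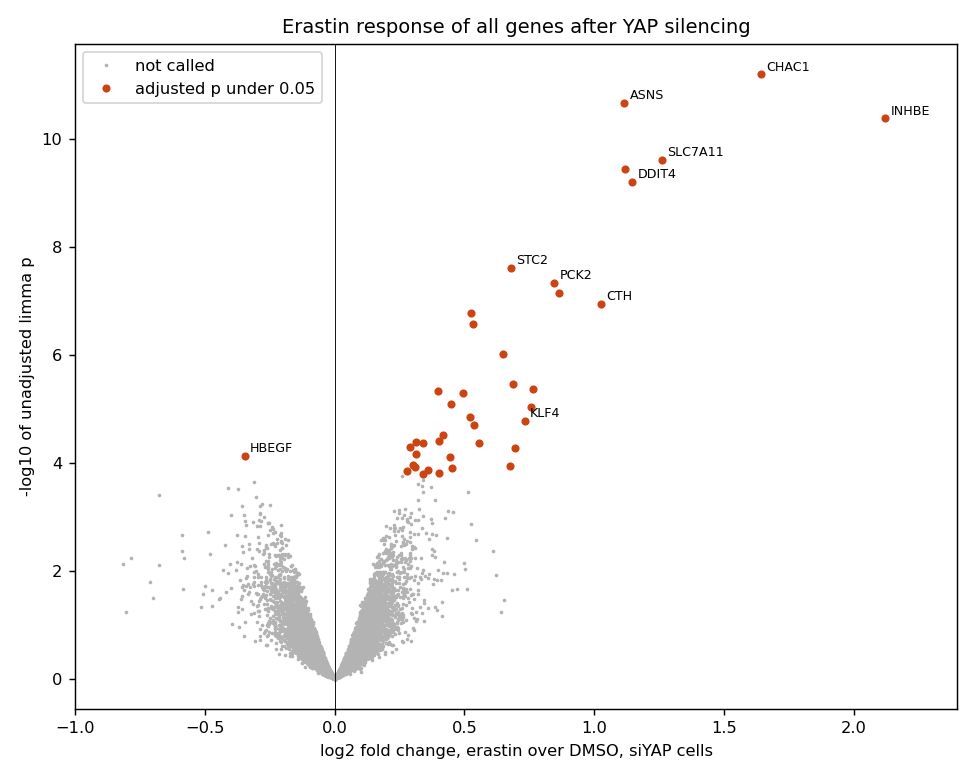
Log2 fold change with erastin in siYAP cells (x axis) against -log10 of the unadjusted limma p (y axis), 1 point per gene for 11963 genes. Filled red points are the 40 genes at adjusted p under 0.05; 39 lie to the right of 0, reaching 2.12 for INHBE, and HBEGF at -0.35 is the point on the left.

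The arrays themselves were even, with medians between 6.49 and 6.52 on the log2 scale and correlations of 0.995 to 0.999 within groups. YAP1 on the siYAP DMSO arrays was 4.18, 4.88 and 4.81, and on the siYAP erastin arrays 4.68, 6.21 and 4.90, against 8.47 to 8.65 on the 6 siNT arrays. Every siYAP array therefore lay below every siNT array, and siYAP erastin array 2 held the most remaining YAP1 signal. The difference in YAP1 between the erastin and DMSO arrays, 0.64 ± 0.31 (SE) on the log2 scale, did not pass (limma adjusted p = 0.494). The signal of ACTB at its 3′ end over its 5′ end is a measure of RNA length. In siYAP cells it was 3.14, 1.49 and 3.14 log2 units in DMSO and 3.35, 3.57 and 3.71 with erastin. All the erastin arrays lay above all the DMSO arrays, so this measure cannot be told apart from erastin in siYAP cells. The lowest value by far was that of siYAP DMSO array 2. The same measure for GAPDH was 0.22 ± 0.01 in DMSO and 0.17 ± 0.04 with erastin (SD, n = 3 each). The part of RNA length and of the remaining YAP1 in the calls was not tested. Without siYAP DMSO array 2 and siYAP erastin array 2 together, a choice made after seeing the data, 15 genes were called, all higher. On the arrays left, the ACTB measure was again higher with erastin, so that fit does not separate RNA length from erastin. Some renal markers were bright, with PAX8 at 10.43, CDH6 at 12.07 and SLC17A3 at 11.49 in siYAP DMSO cells. PAX2 was at 8.38 and CDH1 at 3.32, and the mean of the 16 renal tubule markers was 8.39 to 8.43 on those arrays. PTPRC at 3.69 and PECAM1 at 4.26 lay near the dim end of the arrays, and 0 of 11 immune, 0 of 9 endothelial, 0 of 12 fibroblast and pericyte and 0 of 16 renal tubule markers were called with erastin (limma; at an unadjusted p under 0.05 there were 0, 0, 2 and 2).

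Several of the genes that rose carry the C/EBP-ATF response element near their start, and these sites are shown because that element is the one ATF4 is known to bind. The letters searched were TGATGNAA on both strands, in RefSeq promoter windows of GRCh38.p14 that run from 250 bases before to 50 bases after each annotated start. Of the 39 genes that rose, 29 had a window. In 11 of these 29 genes the letters were present, and by windows in 11 of 49 (22.4%), against 2.45% of the 14058 windows of tested genes and 3.62% of all 35116 windows. Windows of 1 gene can overlap, and a match is a description of the letters, not evidence of binding. The 11 sites follow, each as 30 bases 5′ to 3′ on the gene's strand with the match in capitals; TTGCATCA and TTTCATCA are matches on the opposite strand.
CHAC1 (chr15:40953251-40953280, plus strand): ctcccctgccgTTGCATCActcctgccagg
SLC1A4 (chr2:64989381-64989410, plus strand): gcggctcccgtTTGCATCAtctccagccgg
ASNS (chr7:97872458-97872487, minus strand): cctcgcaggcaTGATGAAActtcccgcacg
TMEM268 (chr9:114611279-114611308, plus strand): gggcgctcggcTGATGAAAcgcggcctcca
CEBPG (chr19:33374060-33374089, plus strand): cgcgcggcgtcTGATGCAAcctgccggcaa
CARS1 (chr11:3057407-3057436, minus strand): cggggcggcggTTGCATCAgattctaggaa
SLC7A1 (chr13:29595663-29595692, minus strand): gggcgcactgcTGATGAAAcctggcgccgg
IFRD1 (chr7:112452065-112452094, plus strand): gctctccatgtTGATGAAAttcattcttta
GARS1 (chr7:30594834-30594863, plus strand): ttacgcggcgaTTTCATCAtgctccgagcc
INPP5B (chr1:37946852-37946881, minus strand): cggcctgcagcTGATGCAAtgggcctgctg
ATF3 (chr1:212565205-212565234, plus strand): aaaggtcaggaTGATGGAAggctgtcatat

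The sites differ in where they lie. Counting the first transcribed base as 1 and the base before it as -1, the match in ATF3 began at -191 and that in CHAC1 at -209, while those in ASNS, CEBPG and GARS1 began at -68, -42 and -33. In CARS1, SLC1A4, INPP5B and TMEM268 the match spanned the annotated start, and in IFRD1 and SLC7A1 it began 19 and 8 bases into the transcript. The 250 bases before the start are given for CHAC1 and ASNS, since these genes had the smallest p-values and each holds 1 match, in capitals.
CHAC1 (chr15:40953221-40953470, plus strand): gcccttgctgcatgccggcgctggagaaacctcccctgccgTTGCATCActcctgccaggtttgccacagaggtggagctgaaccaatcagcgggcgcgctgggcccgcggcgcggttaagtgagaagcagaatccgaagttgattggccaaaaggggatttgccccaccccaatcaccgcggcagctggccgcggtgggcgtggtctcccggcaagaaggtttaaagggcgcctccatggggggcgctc
ASNS (chr7:97872409-97872658, minus strand): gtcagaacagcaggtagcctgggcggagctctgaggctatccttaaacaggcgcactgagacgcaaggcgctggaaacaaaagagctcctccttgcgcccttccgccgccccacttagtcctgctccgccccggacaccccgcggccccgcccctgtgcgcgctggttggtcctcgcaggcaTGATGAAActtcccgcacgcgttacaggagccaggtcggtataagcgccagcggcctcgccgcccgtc

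Shares of other motifs lay closer between these windows and all windows. The CRE (TGACGTCA) was in 4.08% of the windows of genes that rose, which are 2 windows of IFRD1, and in 1.85% of all windows. The AP-1 site (TGANTCA) was in 6.12% and 7.71%. The core of the antioxidant response element (TGACNNNGC), which NRF2 binds, was in 20.4% and 13.3%. In windows of tested genes the shares were 2.58%, 6.06% and 14.3% in the same order. In 1 IFRD1 window an AP-1 match and an antioxidant response element match shared bases. SLC7A11, INHBE, NUPR1, PSPH, YARS1, EIF4EBP1, HEY1, LY96, APOL6 and CALCB had no window in the table used.

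Among ATF4 and the genes it is known to regulate, 13 of 20 measured members rose and 0 fell. The median log2 fold change of the 20 was 0.42, against 0.0019 for all genes, and all 20 values were above 0 (19 after quantile normalization, 20 after median centring). In 14 of the 20 the erastin arrays lay apart from the DMSO arrays, as they did in 22.4% of all genes. The mean level of the list was between 8.58 and 8.65 on the DMSO arrays and between 9.21 and 9.23 on the erastin arrays. Leaving out 1 array at a time left 10 to 11 members higher, and 8 without siYAP DMSO array 2 and siYAP erastin array 2 together. In bulk RNA a larger change in a few cells and a smaller change in all cells cannot be told apart.

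INHBE, the beta E subunit of inhibins and activins, had the largest rise. Its log2 level was 4.45, 4.51 and 4.34 with DMSO and 6.47, 6.58 and 6.61 with erastin. The groups lay far apart, a 4.35-fold difference from a low starting level (limma adjusted p = 1.64e-07). CHAC1, which breaks down glutathione, was at 6.34, 6.38 and 6.40 with DMSO and 8.09, 7.99 and 7.96 with erastin. That is 3.12-fold, and the smallest p of all genes (limma adjusted p = 7.45e-08). DDIT4, an inhibitor of mTORC1, was at 8.91, 8.93 and 9.00 against 10.18, 10.06 and 10.04, a 2.22-fold rise (limma adjusted p = 1.24e-06), and all 3 erastin arrays lay more than 1 log2 unit above all 3 DMSO arrays.

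ATF4 itself was at 12.02, 12.06 and 12.13 with DMSO and 12.41, 12.39 and 12.35 with erastin. The groups did not overlap, and its transcript rose by 0.31 ± 0.05 (SE) on the log2 scale (limma adjusted p = 0.0188). ATF4 activity is controlled mainly through translation, which arrays do not measure. The transcription factors that act with or after ATF4 rose by amounts that differed. CEBPG, a partner of ATF4, rose by 0.69, CEBPB by 0.45, DDIT3 (CHOP) by 0.40 and ATF3 by 0.31. DDIT3 was at 8.15, 8.16 and 8.20 with DMSO and 8.56, 8.60 and 8.56 with erastin, and ATF3 at 9.47, 9.50 and 9.41 against 9.81, 9.72 and 9.78. Neither gene's groups overlapped, but both calls were near the threshold (limma adjusted p = 0.0466 and 0.0271) and both were lost when any 1 of the 6 arrays was left out. The ATF4 call was lost without any of them except siYAP DMSO array 3.

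NUPR1, a stress-induced nuclear protein, rose by 0.76, STC2, a secreted glycoprotein, by 0.68, and TRIB3, a pseudokinase that restrains ATF4, by 0.53. TRIB3 was at 10.22, 10.26 and 10.33 with DMSO and 10.86, 10.78 and 10.77 with erastin. These groups were narrow and separate (limma adjusted p = 0.000266). The 7 members that did not pass were VLDLR at 0.29, PPP1R15A at 0.16, ATF5 at 0.10, KLHL24 and FGF21 at 0.05, XPOT at 0.04 and ADM2 at 0.02 on the log2 scale. SESN2, another ATF4 target, was not measured by a single-symbol probe set.

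Among amino acid transporters, 3 of 21 measured genes rose and 0 fell, and the list's median was 0.01. SLC7A11, the erastin target's transport subunit, was at 8.55, 8.60 and 8.73 with DMSO and 9.90, 9.89 and 9.88 with erastin. The erastin arrays were nearly level and the rise was 2.39-fold (limma adjusted p = 7.19e-07). A second probe set of SLC7A11 rose by 1.19 and a dimmer one gave 0.35, which did not pass. SLC1A4, a carrier of serine, alanine and other small neutral amino acids, was at 6.80, 6.88 and 6.64 against 7.91, 7.86 and 7.91, a 2.17-fold rise (limma adjusted p = 8.53e-07). Of its 3 other probe sets, those at 1.19 and 1.26 passed and the one at 0.11 did not. SLC7A1, the arginine and lysine carrier, rose by 0.49, though its 4 other probe sets, from -0.08 to 0.54, did not pass. The glutamine and large neutral carriers SLC38A2, SLC1A5 and SLC7A5 were at 0.34, 0.29 and 0.26 and did not pass, nor did SLC3A2, the partner chain of SLC7A11, at 0.10 (limma adjusted p = 0.666).

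Among genes of serine, one-carbon and asparagine synthesis, 4 of 17 measured genes rose and 0 fell, with a median of 0.09. ASNS, which makes asparagine from aspartate and glutamine, was at 9.28, 9.35 and 9.25 with DMSO and 10.42, 10.39 and 10.42 with erastin. The arrays of each group lay close together and the groups far apart, and the rise was 2.17-fold (limma adjusted p = 1.27e-07). CTH, which releases cysteine from cystathionine in the transsulfuration pathway, was at 6.88, 7.00 and 6.93 against 7.89, 8.04 and 7.95. Its groups were separate and the rise 2.04-fold (limma adjusted p = 0.000133), while a dimmer probe set of CTH gave 0.43 and did not pass. MTHFD2, a mitochondrial folate enzyme, rose by 0.86 from 10.64, 10.77 and 10.92 to 11.68, 11.60 and 11.64 (limma adjusted p = 9.48e-05). PSPH, which completes serine synthesis, rose by 0.65. Its other probe set was about as bright with DMSO (8.49 against 8.48) but gave 0.16 and did not pass. The first enzymes of that pathway did not pass: PHGDH was at 0.09 and PSAT1 at 0.19. CBS, which acts before CTH, was at 0.28, SHMT2 at 0.19 and ALDH18A1 at -0.22, also without passing.

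Of 16 measured cytosolic aminoacyl-tRNA synthetases, which charge tRNAs with amino acids, 4 rose and 0 fell, and the median was 0.13. CARS1, the enzyme for cysteine, was at 11.58, 11.54 and 11.54 with DMSO and 12.07, 12.09 and 12.08 with erastin. The spread within each group was small beside the rise of 0.52 ± 0.05 (SE, limma adjusted p = 0.000184), and its other probe set gave 0.54 and passed too. WARS1 (tryptophan) rose by 0.40, GARS1 (glycine) by 0.34 and YARS1 (tyrosine) by 0.30. The GARS1 and YARS1 calls were lost when any 1 of the 6 arrays was left out, which left 2 synthetases called, and the other probe set of WARS1 did not pass. AARS1 at 0.22, EPRS1 at 0.19 and SARS1 at 0.18 did not pass, and NARS1 was at 0.01 and LARS1 at -0.06. Of 10 mitochondrial synthetases 0 were called, with a median of 0.01.

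Over these lists of ATF4 targets, transporters, synthesis enzymes and cytosolic synthetases, 22 of the 72 measured genes rose, beside 0.326% of all genes. Some genes stand on more than 1 list, and the lists were written with earlier results of these data known, so the counts are not independent evidence of a direction.

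**Figure D2:**
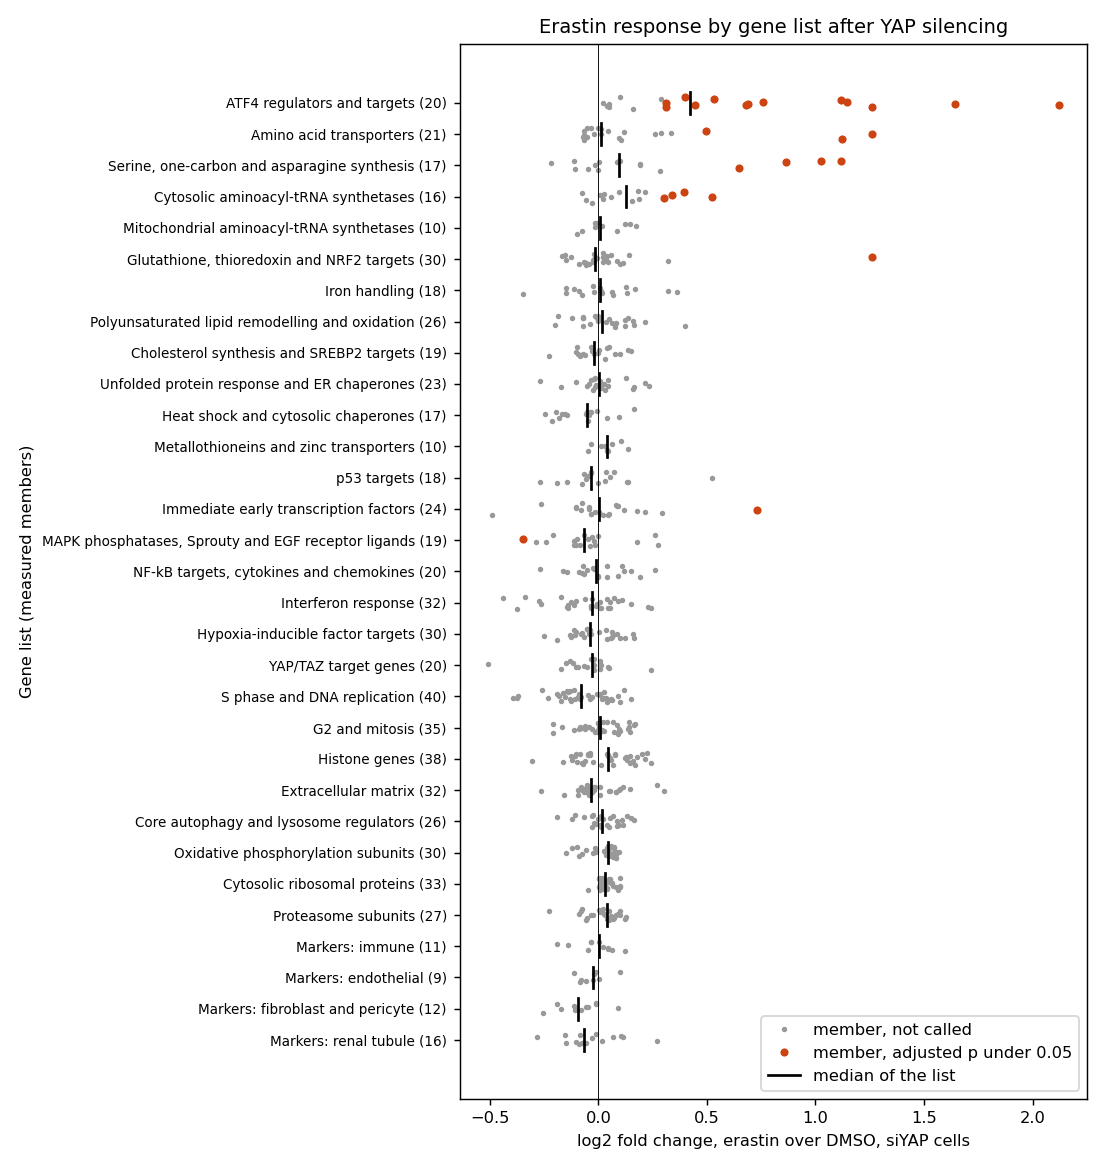
Log2 fold change with erastin in siYAP cells (x axis) for the measured members of 31 gene lists (y axis, number measured in brackets); grey points were not called, red points passed at adjusted p under 0.05, and the black bar is the list's median. The ATF4 list has its median at 0.42 and 13 of 20 members called, and 24 lists have none called.

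The other genes that rose fall on other lists or on none. KLF4, a zinc finger transcription factor, was the 1 member called of 24 immediate early factors. It was at 7.44, 7.39 and 7.56 with DMSO and 8.12, 8.16 and 8.30 with erastin, a rise of 0.73 (limma adjusted p = 0.00936). The groups were separate, but the call was lost without siYAP DMSO array 1, siYAP DMSO array 2 or siYAP erastin array 3, and a dim second probe set gave 0.23 and did not pass. The median of the immediate early list was 0.005, and EGR1 was at 0.12, FOS at -0.01 and MYC at -0.27 without passing.

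PCK2, the mitochondrial enzyme that makes phosphoenolpyruvate from oxaloacetate, was at 6.85, 6.96 and 6.80 with DMSO and 7.75, 7.68 and 7.71 with erastin. Its groups were separate and the rise was 1.80-fold (limma adjusted p = 6.86e-05). TMEM268 rose by 0.77, ZFP69B by 0.70 and LY96, the partner of Toll-like receptor 4, by 0.67. LY96 was dim, at 4.83 to 5.03 with DMSO and 5.37 to 5.74 with erastin. The call of LY96 was lost in 5 of the 6 fits that left out 1 array and that of ZFP69B in 4, while that of TMEM268 was kept in all 6. EIF4EBP1, the repressor of cap-dependent translation, rose by 0.45 from 10.26, 10.32 and 10.41 to 10.75, 10.84 and 10.73 (limma adjusted p = 0.0296), and its groups did not overlap. The call of EIF4EBP1 was lost when any 1 of the 6 arrays was left out.

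The remaining genes that rose are named to complete the 40 and lay outside the naming rule. HEY1, a Notch target, rose by 0.52, HSPBAP1 by 0.56, CALCB, which encodes a calcitonin gene-related peptide, by 0.54, and QPCTL by 0.45. MID1IP1 rose by 0.42, APOL6 by 0.40, IFRD1 by 0.36, INPP5B by 0.34, MOCOS by 0.31, MNT by 0.29 and KDM4A by 0.28. In the fit of every probe set, the other probe sets of HEY1, IFRD1, INPP5B and KDM4A gave 0.29, 0.27, 0.24 and 0.35 and did not pass. The calls of HSPBAP1, INPP5B, MOCOS and KDM4A were lost when any 1 of the 6 arrays was left out, those of QPCTL, MID1IP1, IFRD1 and MNT without 5 of the 6 arrays in turn, those of CALCB and APOL6 without 4, and that of HEY1 without siYAP DMSO array 2. CALCB at 3.34 and QPCTL at 4.29 were, with INHBE and LY96, the 4 called genes below 5 in DMSO, where RMA compresses changes. Of the 40 genes, 24 stand on a list and 16 on none. All 40 had arrays that did not overlap between the groups, but so did 22.4% of all genes.

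**Figure D3:**
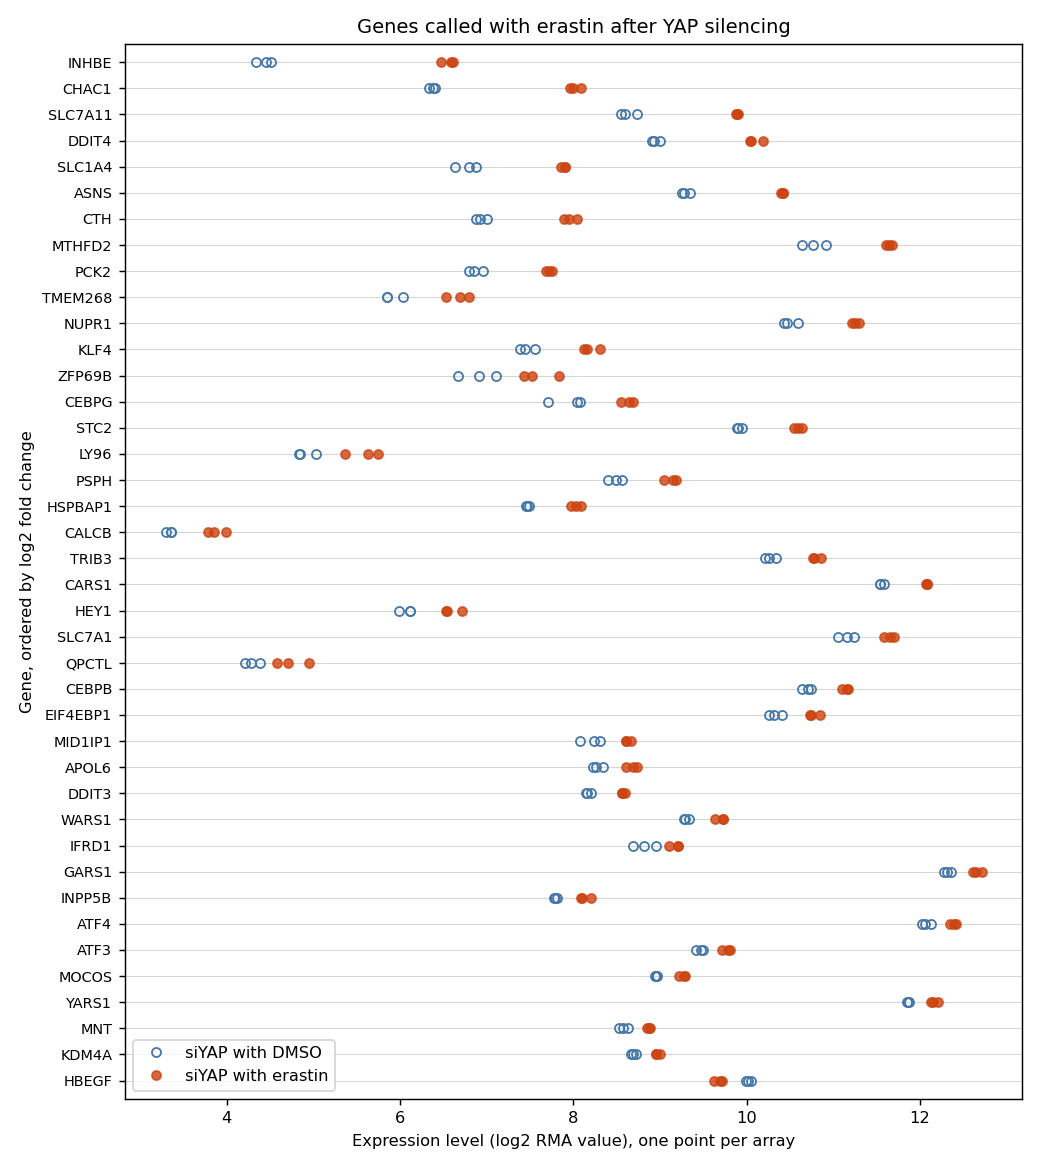
Log2 RMA level (x axis) of the 40 called genes (y axis, ordered by log2 fold change) on each siYAP array with DMSO (open blue circles) and erastin (filled red circles). For each gene the 3 erastin arrays lie to one side of the 3 DMSO arrays, to the right for 39 genes and to the left for HBEGF.

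HBEGF, a ligand of the EGF receptor, was the gene that fell. It was at 9.99, 10.05 and 10.02 with DMSO and 9.71, 9.62 and 9.69 with erastin, and fell by 0.35 ± 0.06 (SE) on the log2 scale (limma adjusted p = 0.0287). Its groups did not overlap, and a second probe set fell by 0.37, while a dim one gave 0.10. The call of HBEGF was nevertheless lost when any 1 of the 6 arrays was left out. HBEGF was 1 of 19 measured genes on the list of MAPK phosphatases, Sprouty genes and EGF receptor ligands, whose median was -0.07. Of these 19 genes, 3 had values above 0. At an unadjusted limma p under 0.05 there were 6 (31.6%), against 10.7% of all genes. DUSP1 at -0.29 and DUSP5 at -0.24 did not pass, and DUSP6 was at 0.26. PLAUR, a gene outside the classes named, was at -0.21 and did not pass.

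Genes of glutathione metabolism and the NRF2 pathway gave 1 of 30 higher, SLC7A11, which is also on the ATF4 list, and a median of -0.02. HMOX1, the heme oxygenase often used as a mark of oxidative stress, was at 10.53, 10.69 and 10.55 with DMSO and had a mean of 10.91 with erastin, the lowest array being at 10.83. These groups did not overlap, but the difference of 0.32 ± 0.07 (SE) did not pass (limma adjusted p = 0.108). It passed under array weights (adjusted p = 0.0246) and under a trended and robust variance (0.00845). The glutathione synthesis genes GCLC and GCLM were at -0.15 and -0.09, NQO1 at 0.04 and TXNRD1 at -0.04, none of which passed. GPX4, which reduces lipid hydroperoxides and guards against ferroptosis, was at 11.98, 11.97 and 11.89 with DMSO and 12.04, 12.08 and 12.07 with erastin, a difference of 0.11 (limma adjusted p = 0.623).

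Genes of iron handling and of lipid oxidation gave 0 calls of 18 and of 26. TFRC, the transferrin receptor, was at 0.01 and FTL at 0.01 on the log2 scale, and FTH1 had no single-symbol probe set. At an unadjusted p under 0.05 the iron list held 5 of 18 members, or 27.8%, against 10.7% of all genes. These were HMOX1 at 0.32, SLC11A2, an iron importer, at 0.36, the iron chaperones PCBP1 and PCBP2 at -0.35 and -0.15, and NCOA4, which delivers ferritin to lysosomes, at -0.15. They moved in both directions, and 1 member was called higher and 1 lower under array weights and under a trended and robust variance. The lipid list held 2 of 26 at that unadjusted p. ACSL4, which prepares polyunsaturated fatty acids for membrane lipids, was at -0.01 and NOX4, an NADPH oxidase, at 0.05. PTGS2, a transcript often raised in ferroptosis, was at 6.50, 6.55 and 6.55 with DMSO and 6.86, 6.92 and 7.02 with erastin. Its groups did not overlap in siYAP cells, but its difference of 0.40 ± 0.13 (SE) did not pass (limma adjusted p = 0.336).

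YAP and TAZ target genes gave 0 of 20 called, with a median of -0.03. WWTR1 (TAZ), the paralog of YAP, was at -0.12 (limma adjusted p = 0.468), and SKP2 at 0.03, EMP1 at -0.06 and ANGPTL4 at -0.04 did not pass either. SKP2 was at 8.22, 8.18 and 8.34 with DMSO and 8.08, 8.75 and 8.00 with erastin. Its highest value was on siYAP erastin array 2, and the other erastin arrays lay below all the DMSO arrays. The smallest p on the list of YAP and TAZ targets was that of ASAP1, at -0.51 ± 0.20 (SE, limma adjusted p = 0.419). ASAP1 was at 8.77, 9.36 and 8.72 with DMSO and 8.51, 8.43 and 8.39 with erastin, so siYAP DMSO array 2 added to the size of that difference.

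The 24 lists with 0 calls in limma held 549 measured genes and had medians between -0.09 and 0.04. At an unadjusted p under 0.05 they held 59 genes, or 10.7%, which is also the share among all genes (10.7%). Besides the mitochondrial synthetases, iron, lipid, YAP and cell type lists, they covered stress pathways. The unfolded protein response gave 0 of 23 called (PDIA4 had the smallest p, at -0.27), heat shock 0 of 17 (DNAJB1, at -0.18), p53 targets 0 of 18 (PMAIP1, at 0.52), metallothioneins and zinc transporters 0 of 10, and autophagy and lysosome regulators 0 of 26. Cholesterol synthesis gave 0 of 19, NF-kB targets and cytokines 0 of 20, the interferon response 0 of 32 and hypoxia-inducible factor targets 0 of 30. S phase genes gave 0 of 40 (CDC6, at -0.38), G2 and mitosis genes 0 of 35 (PLK1, at -0.21), histone genes 0 of 38 and extracellular matrix genes 0 of 32 (THBS1, at -0.26). Subunits of oxidative phosphorylation gave 0 of 30, ribosomal proteins 0 of 33 and the proteasome 0 of 27. Heat shock and cytosolic chaperone genes held 7 of 17 members at an unadjusted p under 0.05, with a median of -0.05 and 3 values above 0, and p53 targets held 4 of 18, or 22.2%. A gene that did not pass is not shown to be unchanged: the smallest change called was 0.28 on the log2 scale.

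The same dose and time of erastin in siNT cells, on 6 other arrays, gave 90 calls (0.752% of genes), of which 58 were higher and 32 lower. That split depended on the setting, with 146 higher and 177 lower under array weights, 98 higher and 63 lower under a trended and robust variance, and 15 higher and 0 lower when only those 6 arrays were fitted. The genes higher in both cells numbered 23, which is 58.97% of those that rose in siYAP cells and 39.66% of those that rose in siNT cells. HBEGF was lower in both, and 0 genes moved in opposite directions. All 40 genes called in siYAP cells had the same sign in siNT cells, against 50.4% of all genes. Over all 11963 genes the log2 fold changes of the responses correlated with r = 0.129 and rho = 0.015, across genes, which are not independent replicates. The called genes thus had like signs in both cells while the genes as a whole hardly did.

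**Figure D4:**
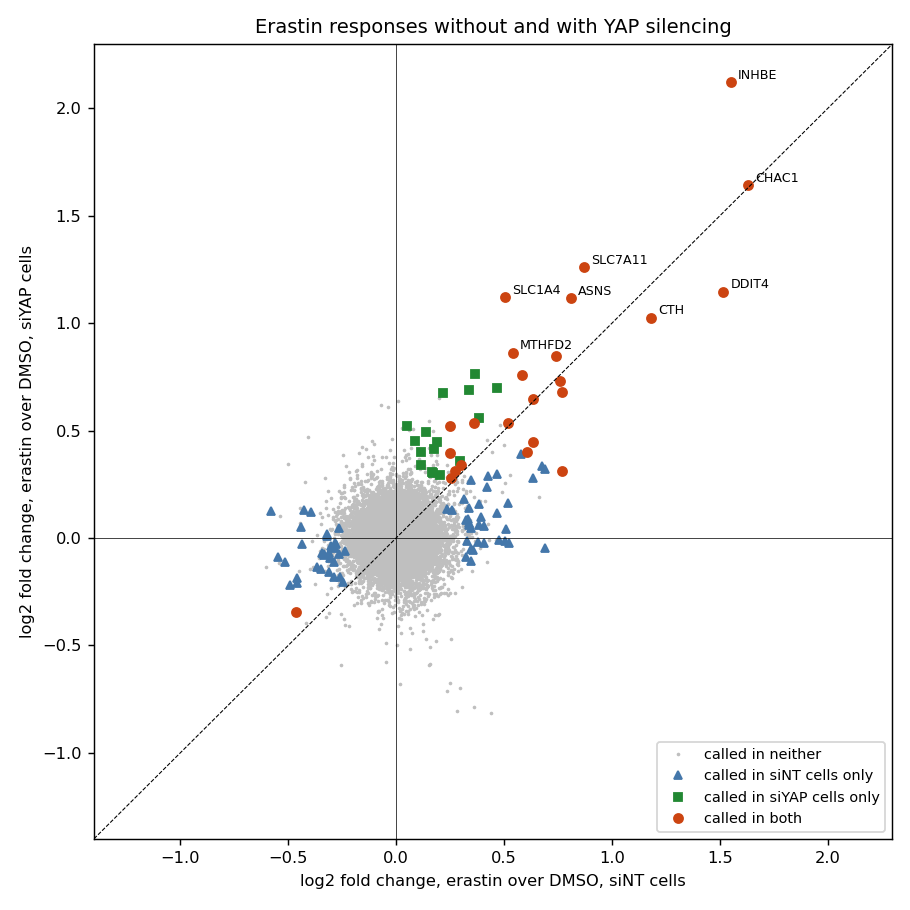
Log2 fold change with erastin in siNT cells (x axis) against that in siYAP cells (y axis), 1 point per gene for 11963 genes; the dashed line marks equal changes. Red circles are the 24 genes called in both, green squares the 16 called in siYAP cells alone and blue triangles those called in siNT cells alone, and no gene called in both lies in a quadrant of opposite signs.

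A test of the difference between the responses called 0 of 11963 genes (limma, siYAP change minus siNT change), with 1179 at an unadjusted p under 0.05. The 16 genes called in siYAP cells but not in siNT cells are therefore not shown to respond differently. SLC1A4 had the smallest p of that test. It changed by 1.12 in siYAP cells and 0.51 in siNT cells, a difference of 0.61 (95% interval 0.42 to 0.80, limma adjusted p = 0.153). It was the 1 gene called under array weights (adjusted p = 0.0197). Under a trended and robust variance 8 genes were called, 2 with a higher difference, SLC1A4 and TMEM158, and 6 with a lower one, ATF3, GDF15, TXNIP, JAG1, ALDH1A1 and HLA-G, named after their values were seen. ATF3 followed with 0.31 in siYAP cells and 0.77 in siNT cells, a difference of -0.46 (95% interval -0.62 to -0.29). Its limma adjusted p was 0.272, and 0.017 under the trended and robust variance.

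For the largest rises the intervals of the difference varied in width. CHAC1 changed by 1.64 in siYAP cells and 1.63 in siNT cells, with a difference of 0.01 (95% interval -0.19 to 0.21). INHBE changed by 2.12 and 1.55, with an interval of 0.27 to 0.87, SLC7A11 by 1.26 and 0.87, with 0.18 to 0.60, and DDIT4 by 1.15 and 1.52, with -0.57 to -0.17. These intervals are not adjusted for the number of genes, and the adjusted p of the difference was 0.354 for INHBE and SLC7A11 and 0.378 for DDIT4 (limma). HMOX1 changed by 0.32 and 0.69 (difference -0.37, limma adjusted p = 0.384) and SLC3A2 by 0.10 and 0.40 (difference -0.30, limma adjusted p = 0.428).

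The genes with the largest rises started from lower means in siYAP than in siNT cells given DMSO. That difference was not tested, and these genes were picked by their rise in siYAP cells. Other called genes started higher in siYAP cells, such as ATF3 (9.46 against 8.46) and PSPH (8.48 against 8.12). INHBE had means of 6.26 in siNT DMSO, 7.81 in siNT erastin, 4.43 in siYAP DMSO and 6.56 in siYAP erastin cells. ASNS had 10.40, 11.21, 9.29 and 10.41 in the same order, so that its mean in siYAP cells with erastin lay beside that of siNT cells with DMSO. For SLC1A4 the means were 8.23, 8.73, 6.77 and 7.89, and for CHAC1 7.13, 8.76, 6.37 and 8.01. DDIT4 had 9.75, 11.27, 8.95 and 10.09. In siYAP cells with erastin, CHAC1, INHBE and DDIT4 lay above siNT cells with DMSO and below siNT cells with erastin, whereas SLC7A11, with 8.85, 9.72, 8.63 and 9.89, was highest in siYAP cells with erastin. The differences between siYAP erastin and siNT DMSO cells were not tested. The mean level of the ATF4 list by array was 8.93 to 9.01 in siNT DMSO, 9.52 to 9.57 in siNT erastin, 8.58 to 8.65 in siYAP DMSO and 9.21 to 9.23 in siYAP erastin cells, with no overlap between any of the groups.

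**Figure D5:**
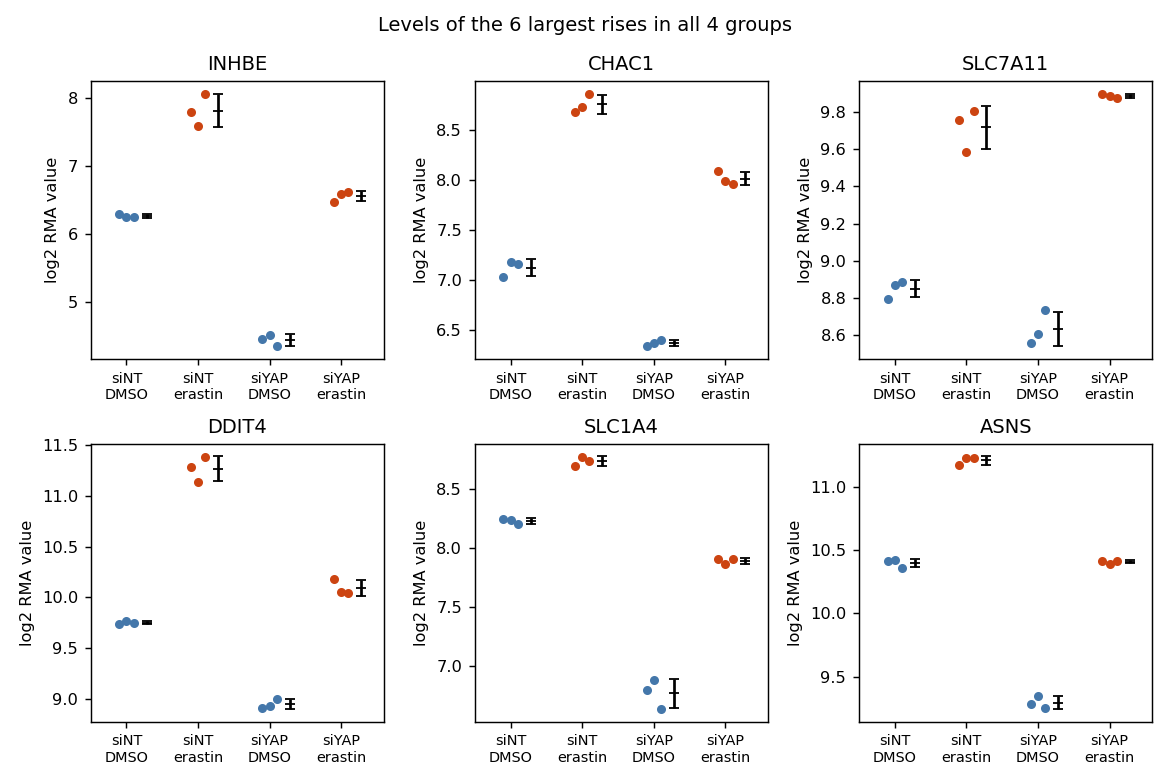
Log2 RMA level (y axis, a separate scale in each panel that does not start at 0) of the 6 genes with the largest rises in the 4 groups (x axis); points are arrays, blue with DMSO and red with erastin, and bars are the mean ± SD of 3 arrays. Each gene is higher with erastin in both cells, and each starts lower in siYAP than in siNT cells, from 4.43 against 6.26 for INHBE to 8.63 against 8.85 for SLC7A11.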

How the data were processed

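RCC4 cells were profiled on 12 single-channel arrays, whose titles give group and replicate. Per the submitters' processing notes, the authors used Affymetrix Expression Console and RMA (versions not given in the sources used here). The deposited table holds log2 values from 2.02 to 14.4. RMA equalises arrays, so it hides a change of total RNA in a cell. Of 22277 probe sets, 62 were controls, 19065 had 1 gene symbol, 1043 several and 2107 none, and 19053 matched a RefSeq gene table. The number of arrays limits the precision.

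All 12 arrays entered a linear model with group means in limma 3.58.1 in R 4.3.3 (8 residual and 4.17 prior degrees of freedom), and genes were called at a Benjamini-Hochberg adjusted p under 0.05 over 11963 genes. The fit was tested on simulated data. Named genes were 21 chosen genes, the 15 largest rises and falls among called genes without overlap, up to 6 called members of each of 31 lists or, where none was called, the member with the smallest p, and up to 10 genes of the difference; other names were added after their values were seen. Members, lists and rules were chosen with earlier results of these data known. Alternatives were a fit of the 6 arrays compared, a replicate block, median centring, quantile normalization, removal of the dimmest 30% of probe sets, other handling of a gene's probe sets, trended variance, array weights, a 1.5-fold minimum and leaving out arrays. Replicate numbers were not used to pair the arrays in the main fit. No batch was tested, as neither the array model nor a scan date was given. The running numbers in the titles follow group, so they could not be used to test one.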

Additional observations from a re-analysis of the deposited data

How the results depend on the processing

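The 40 calls in siYAP cells (39 higher) became 26 in a fit of the 6 arrays compared, 74 (51 higher, 23 lower) with a trended and robust variance, 73 (60 higher, 13 lower) with array weights, 17 with a 1.5-fold minimum and 20 to 27 without 1 array. Without siYAP DMSO array 2 and siYAP erastin array 2 together, a choice made after seeing the data, there were 15. Median centring, quantile normalization, removal of dim probe sets, averaging probe sets within genes and testing each probe set alone gave 32 to 46. In all alternatives but the fold minimum 13 genes were called: INHBE, CHAC1, SLC7A11, DDIT4, SLC1A4, ASNS, CTH, MTHFD2, PCK2, STC2, PSPH, TRIB3 and CARS1. The 90 calls in siNT cells became 15 (15 higher) with the 6 arrays compared, 140 without dim probe sets, 58 with every probe set, 161 (98 higher, 63 lower) with trended variance, 323 (146 higher, 177 lower) with array weights, 17 with the fold minimum and 34 to 61 without 1 array. The difference between responses, with 0 calls, gave 8 (2 higher, 6 lower) with trended variance, 1 with array weights and 0 to 0 without 1 array. Some settings hold fewer arrays, and the causes of the changed counts were not tested. No named gene called in siYAP cells was called in the opposite direction in an alternative. Some named genes that were not called and had small changes did change sign, such as TFRC under median centring. For lists other than the ATF4 list, only the counts of called members were compared, so a change of sign in their medians was not tested.

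With the replicate number as a block there were 28 calls in siYAP cells (27 of them among the 40), 38 in siNT cells and 0 for the difference. To look for pairing by number, the deviations of each array from its group mean were correlated between DMSO and erastin arrays. For arrays of the same number these correlations were -0.07, -0.05 and -0.03 in siYAP cells and -0.07, -0.27 and -0.42 in siNT cells. No DMSO array correlated best with the erastin array of its own number. These values gave no sign of pairing by number, but how the cultures were grown is not stated.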
